A study of Mus musculus with 3 samples.

Results

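Microglia of mouse thalamus were compared within a single preparation, 4 h after an injection of IL-33 into the cerebral ventricles. The comparison set the cells that the authors' deposited table places in cluster 1 against those it places in cluster 0 or 2. Only the WT IL-33 library entered it, so no difference between libraries did. Cluster 1 held 1815 cells and cluster 0 or 2 held 246 cells, of which 144 were in cluster 0 and 102 in cluster 2. Together these were 2061 of the 2202 cells of the library and of the 7598 cells of the series. The WT IL-33 library was made from CD45-positive cells, a gate for leukocytes and microglia, of Cx3cr1-creER heterozygous mice given IL-33. The cKO IL-33 library came from Cx3cr1-creER heterozygotes that were also homozygous for floxed ST2, given IL-33. Cx3cr1-creER heterozygotes given vehicle made up the WT vehicle library. All 3 libraries therefore carried the Cx3cr1-driven recombinase, which is active in microglia and in other macrophages too. How many animals each library pooled is not stated in the labels.

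IL-33 is a cytokine of the IL-1 family that is stored in nuclei, in the brain mostly in astrocytes and oligodendrocytes, and released when cells are damaged or stressed. Its receptor joins ST2, encoded by Il1rl1, with the shared chain encoded by Il1rap. The adaptor MyD88 and kinases of the IRAK family then lead to NF-kB, a set of transcription factors that switch on chemokines, cytokines and their own inhibitors. Resting microglia are known by a set of homeostatic genes, among them the ADP receptor gene P2ry12, which many inflammatory stimuli lower.

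The clusters were formed by the authors from the expression of these cells, so each gene could have helped to set the cells apart. All values below are therefore descriptions, without a test. The library is also 1 sample, and cells are not replicates. Levels are unique molecular identifiers (UMIs) of a gene summed over cells and scaled to a common total (CPM, counts per 1e6 summed UMIs). All intervals are at 95% and cover counting error only.

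Both sides were microglial by their markers. All 2061 cells held UMIs of at least 3 of 8 microglial marker genes. Cx3cr1, the fractalkine receptor gene, was at 3109 CPM in cluster 1 and 3185 CPM in cluster 0 or 2. Summed counts were 10466756 UMIs for cluster 1 and 952605 UMIs for cluster 0 or 2, with medians of 4064 and 3280 UMIs per cell. Mitochondrial transcripts made up a median of 2.32% of UMIs in cluster 1 cells and 1.98% in cluster 0 or 2 cells, and ribosomal protein transcripts 10.6% and 10.5%. The deposited cycle call was G1 in 59.6% of cluster 1 cells and 60.2% of cluster 0 or 2 cells. Of the 6 marker genes of neutrophils, all were at 0 on both sides. T cell markers gave 2 UMIs in cluster 1 and 0 in cluster 0 or 2. Markers of border-associated macrophages summed to 113 CPM in cluster 1 and 241 CPM in cluster 0 or 2, with 5 of 7 markers detected in cluster 1 and 3 of 7 in cluster 0 or 2. Most of that came from Stab1, at 105 and 226 CPM, and Mrc1 was at 5.64 and 14.7 CPM, while Cd163 and Lyve1 were at 0 on both sides. The part of such transcripts in the results was not tested beyond leaving out cells with at least 2 UMIs of another class's markers. That left 183 cells of cluster 1 and 74 cells of cluster 0 or 2. Markers of dendritic cells summed to 885 CPM and 359 CPM, nearly all from Fscn1, an actin-bundling gene, with Clec9a and Cd209a at 0 on both sides. Dendritic cell markers alone reached 2 UMIs in 1474 of 1815 cluster 1 cells and 85 of 246 cluster 0 or 2 cells. Fscn1 was itself 2.55-fold higher in cluster 1 (2.28 to 2.86). Leaving out such cells thus also selected on a gene that differed between the sides. Markers of astrocytes summed to 241 CPM in cluster 1 and 284.5 CPM in cluster 0 or 2, mostly from Slc1a3 (235.3 and 281.3 CPM). Those of B cells summed to 293.9 and 262.4 CPM, mostly from Cd79b (138.4 and 85.03 CPM) and Ighm (151.7 and 176.4 CPM). The library held cells of both sexes by the deposited call. Female-called cells were 48.4% of cluster 1 (46.1 to 50.8) and 64.2% of cluster 0 or 2 (57.9 to 70.2). Of these female-called cells, 595 of 879 in cluster 1 and 145 of 158 in cluster 0 or 2 held no Y-linked UMI. Of the male-called cells, 584 of 936 in cluster 1 and 45 of 88 in cluster 0 or 2 held one. Cells with UMIs of both Xist and Y-linked genes were 284 of 1815 in cluster 1 and 13 of 246 in cluster 0 or 2. A cell of 1 sex should not hold this pair together. These cells were as many as the female-called cells with a Y-linked UMI. Their median depth was 11290 UMIs in cluster 1 and 4766 UMIs in cluster 0 or 2, against 4064 and 3280 UMIs over all cells. The part of cells with this pair in the results was not tested beyond leaving them out. That kept the sign of each named gene at least 2-fold apart, but those genes were picked by ratios over mostly the same cells.

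The name non-responding, by which the cluster 0 or 2 cells can be called, did not match their levels beside vehicle cells. Of the cells in cluster 0 or 2, 161 of 246 (65.4%, 59.1 to 71.4) spent a larger share of their UMIs on 82 cytokine, chemokine and NF-kB pathway genes than 95% of WT vehicle cells of the same clusters did. The cells are therefore named here by cluster number. The 82 genes were those of the lists of cytokines and growth factors, chemokines, NF-kB subunits, NF-kB feedback inhibitors and NF-kB target effectors. The part of free RNA from cluster 1 cells in the share of UMIs that these genes took was not tested. Vehicle and cKO values are levels for orientation only. Those libraries were separate preparations of nearly 1 sex each, with 0.38% female-called cells in cluster 0 or 2 of WT vehicle and 98.4% in cKO IL-33.

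Cluster 1 cells stood apart first by secreted and surface molecules of inflammation. Of 4205 genes that reached 50 CPM on either side, 293 (6.97%) were at least 2-fold higher in cluster 1 and 389 (9.25%) at least 2-fold lower. The 15 genes with the highest ratios were Saa3, Il12b, Cxcl13, Ccl4, Cxcl10, Cd40, Ccr7, Ccl3, Gadd45b, Ch25h, Cd69, Ccl22, Il1b, Cp and Cd44. The 15 with the lowest were Il7r, Gm10790, Etv1, A830008E24Rik, Hpgd, Ccng2, Bank1, Gpr34, Gm6277, Eef2k, Rtn4rl1, Crebrf, Galnt12, Tln2 and Lifr. Lists of genes were described on a wider basis, the 8778 genes that reached 10 CPM on either side. Of those, 1299 (14.8%) were at least 1.5-fold higher in cluster 1 and 1992 (22.7%) at least 1.5-fold lower, with a median log2 ratio of -0.07.

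**Figure D1:**
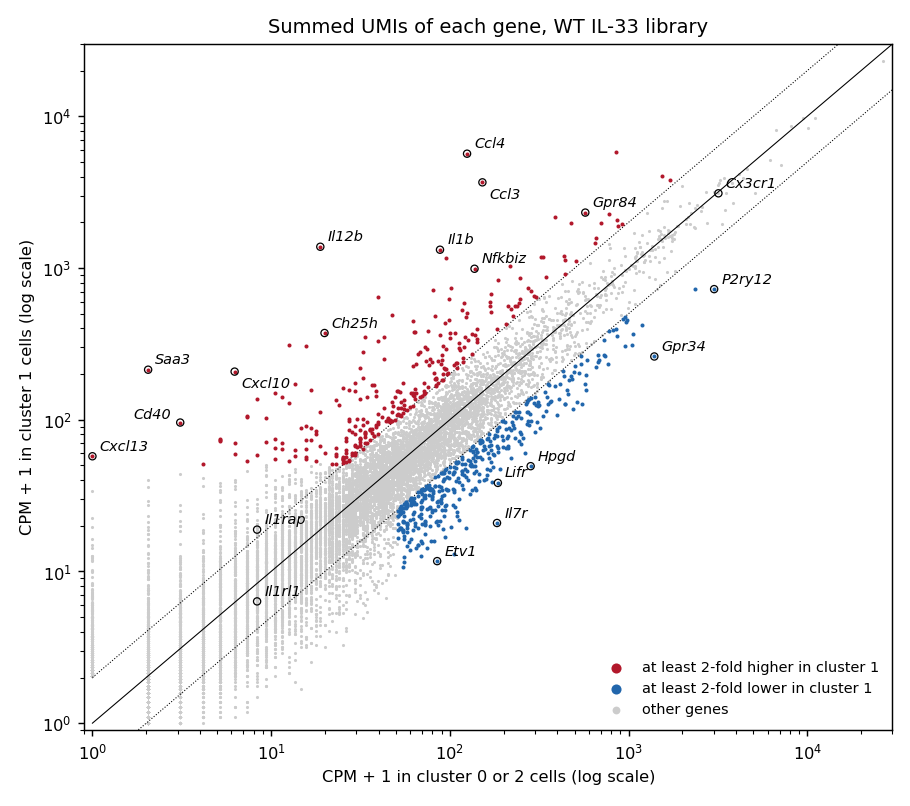
Level of each gene in cluster 1 cells (vertical axis) and in cluster 0 or 2 cells (horizontal axis) of the WT IL-33 library, in CPM plus 1 on log scales. Each point is a gene, the solid line marks equal levels and the dotted lines 2-fold; Ccl4 and Ccl3 lie far above the line at 5674 and 3672 CPM in cluster 1, P2ry12 and Gpr34 lie below it, and Cx3cr1 lies on it.

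Chemokines, which draw leukocytes to a site, were the secreted group with the clearest difference. Of 15 chemokine genes at 10 CPM or more, 14 were at least 1.5-fold higher in cluster 1 and 0 lower, with a median log2 ratio of 3.51. Ccl4, an attractant of monocytes and T cells, was at 5674 CPM in cluster 1 and 124 CPM in cluster 0 or 2, a 45.8-fold ratio (38.2 to 55.4). WT vehicle cells of cluster 0 or 2 held 5.89 CPM of Ccl4. Thus cluster 0 or 2 of WT IL-33 lay between the other 2 levels. The gene spans chromosome 11, 83662584 to 83664683, on the plus strand (GENCODE annotation of GRCm38). Ccl3, its neighbour on chromosome 11 and a related attractant (83647844 to 83649355, minus strand), was at 3672 CPM against 151 CPM, a 24.3-fold ratio (20.6 to 28.8). Cxcl10, which attracts T cells through CXCR3, was at 207 CPM against 5.25 CPM (39.4-fold, 16.8 to 121). Ccl22, a ligand of CCR4, was at 641 CPM against 38.8 CPM (16.5-fold, 11.96 to 23.5). These 4 genes shared a direction but differed in how many cells held them. In cluster 1, UMIs were found in 85.5% of cells for Ccl4, 87.0% for Ccl3, 51.7% for Ccl22 and 20.7% for Cxcl10. The top 10% of cluster 1 cells held 88.9% of the Cxcl10 UMIs, against 42.0% of those of Ccl4. Few cells thus carried most of the Cxcl10 level. Cxcl13, the B cell attractant, had 591 UMIs in cluster 1 and 0 in cluster 0 or 2, so with a floor of 3 counts over cluster 0 or 2 it was at least 17.9-fold higher in cluster 1, and the exact interval of the ratio begins at 14.5. Cxcl13 UMIs came from 2.26% of cluster 1 cells. Ccl6, a chemokine that resting microglia also make, was the member without an excess, at 66.6 CPM in cluster 1 and 82.9 CPM in cluster 0 or 2.

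The promoters of some of these genes are shown because the NF-kB pathway is the textbook route from the IL-33 receptor to chemokine genes. The windows span 250 bases before to 50 bases after the RefSeq start (GRCm38.p6), 5′ to 3′ on the gene's strand. Capitals mark matches to GGGA, any 4 bases, then CC, read on either strand. Cxcl10, Ccl22 and Ch25h, the cholesterol 25-hydroxylase gene, are examples of the highest genes with a match, and Il7r, which had the lowest ratio, is an example without one. Other genes were the reverse: Saa3, Il12b, Ccl3, Gadd45b, Il1b and Cd44 held none, and Lifr and Eef2k, among the lowest, held a match in at least 1 of their promoters.
Cxcl10, chr5:92348840-92349139, minus strand: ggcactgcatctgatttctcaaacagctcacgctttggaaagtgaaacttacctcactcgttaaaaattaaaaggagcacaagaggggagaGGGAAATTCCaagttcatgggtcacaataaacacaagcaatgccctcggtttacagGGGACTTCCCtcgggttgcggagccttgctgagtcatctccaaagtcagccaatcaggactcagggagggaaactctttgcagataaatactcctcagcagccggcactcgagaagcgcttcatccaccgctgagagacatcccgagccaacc
Ccl22, chr8:94745434-94745733, plus strand: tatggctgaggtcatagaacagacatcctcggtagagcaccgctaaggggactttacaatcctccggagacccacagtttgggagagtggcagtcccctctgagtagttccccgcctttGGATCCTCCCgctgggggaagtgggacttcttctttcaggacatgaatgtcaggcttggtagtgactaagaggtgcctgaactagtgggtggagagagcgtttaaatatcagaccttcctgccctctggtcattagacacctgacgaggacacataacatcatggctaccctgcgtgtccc
Ch25h, chr19:34475099-34475398, minus strand: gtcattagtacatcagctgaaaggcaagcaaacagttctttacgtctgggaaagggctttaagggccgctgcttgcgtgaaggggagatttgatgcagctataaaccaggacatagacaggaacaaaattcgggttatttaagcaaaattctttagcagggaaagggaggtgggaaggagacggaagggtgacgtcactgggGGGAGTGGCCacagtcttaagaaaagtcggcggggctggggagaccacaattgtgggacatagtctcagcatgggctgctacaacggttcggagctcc
Il7r, chr15:9529827-9530126, minus strand: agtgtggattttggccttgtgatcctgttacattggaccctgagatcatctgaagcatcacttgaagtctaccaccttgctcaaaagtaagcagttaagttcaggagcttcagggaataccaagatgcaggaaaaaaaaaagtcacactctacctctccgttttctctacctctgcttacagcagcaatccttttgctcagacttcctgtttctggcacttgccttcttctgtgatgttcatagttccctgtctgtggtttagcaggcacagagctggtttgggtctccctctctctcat
Such a match is a description of the letters only. Of the genes with a promoter in the table, 36.0% of those at least 2-fold higher in cluster 1 (82 of 228) and 34.6% of those at least 2-fold lower (104 of 301) held one. The share was 30.3% (1027 of 3388) over genes at 50 CPM or more and 22.9% (6195 of 27025) over all genes of the RefSeq promoter table, so the higher and the lower genes had close shares. Of the 15 highest genes, 11 had a promoter in the table and 5 of these held a match (45.5%). Of the 15 lowest, 9 had one and 2 of these held a match (22.2%).

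Among cytokines, Il12b, Il1b, Il1a and Tnf were higher in cluster 1. Of 15 cytokine and growth factor genes, 8 were higher and 3 lower, with a median log2 ratio of 0.67. Il12b, the p40 subunit shared by IL-12 and IL-23, was at 1381 CPM in cluster 1 and 17.8 CPM in cluster 0 or 2, a 77.4-fold ratio (48.3 to 133). Il1b, an NF-kB target and the main secreted IL-1 cytokine, was at 1320 CPM against 87.1 CPM (15.2-fold, 12.2 to 19.0), with 0.256 CPM in WT vehicle cells. WT vehicle cells held 0.0854 CPM of Il12b, from 1 UMI. Both genes were thus above the vehicle level in cluster 1 and in cluster 0 or 2. Tnf was at 433 CPM against 93.4 CPM (4.63-fold, 3.76 to 5.78), and WT vehicle cells held 2.90 CPM. Il1a was at 562 CPM against 166 CPM. Il1rn, which encodes the IL-1 receptor antagonist, was at 72.5 CPM against 4.199 CPM from 4 UMIs. The 3 lower members were growth factors: Tgfb1 at 218 CPM in cluster 1 and 351 CPM in cluster 0 or 2, Pdgfb at 142 and 230 CPM, and Hbegf at 3.44 and 14.7 CPM.

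The single most uneven gene on the higher side was Saa3, an acute-phase serum amyloid gene, with 2227 UMIs in cluster 1 and 1 UMI in cluster 0 or 2, a 203-fold ratio (36.3 to 8009). Saa3 UMIs were held by 112 of 1815 cluster 1 cells, of which 69 had 5 or more UMIs. So a small group of cells carried that difference. Of 7 inflammatory enzyme and acute-phase genes, 6 were higher in cluster 1 and 1 lower, with a median log2 ratio of 3.83. Ch25h, which makes 25-hydroxycholesterol, was at 372 CPM against 18.9 CPM (19.7-fold, 12.4 to 33.3). Sod2, the mitochondrial superoxide dismutase gene, was at 386 CPM against 74.5 CPM. The lower member was Ptgs1, the constitutive cyclooxygenase, at 222 CPM in cluster 1 and 656 CPM in cluster 0 or 2.

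Surface molecules used to meet lymphocytes were mostly higher in cluster 1 too. Of 14 costimulation and leukocyte activation genes, 13 were higher and 1 lower, with a median log2 ratio of 2.08. Ccr7, the receptor that guides cells to lymph nodes, was at 308 CPM against 11.5 CPM (26.7-fold, 14.9 to 53.5) and at 0 UMIs in WT vehicle cells. Cd40, the receptor for T cell help, was at 94.9 CPM against 2.10 CPM from 2 UMIs (45.2-fold, 12.5 to 374). Cd69 was at 137 CPM against 7.35 CPM and Cd44, an adhesion receptor, at 150 CPM against 9.45 CPM. These low counts in cluster 0 or 2 make the ratios loose: the log2 ratio of Cd40 was 6.42 in female-called cells without Y-linked UMIs and 3.04 in male-called cells with them, and that of Cd44 was 3.40 and 7.65. Among 13 pattern recognition receptor genes, 7 were higher and 4 lower (median 0.84). Tlr2, a sensor of bacterial lipoproteins, was at 1179 CPM against 333 CPM, and Marco, a scavenger receptor, at 353 CPM against 32.5 CPM. Tlr7, the endosomal sensor of single-stranded RNA, went the other way at 68.2 CPM in cluster 1 and 250 CPM in cluster 0 or 2, as did Tlr3 (27.7 and 68.2 CPM) and Tlr4 (17.6 and 42.0 CPM). Of 8 metabolite-sensing receptor genes, 4 were higher and 2 lower (median 1.16), the lower ones being Ptafr and S1pr1. Gpr84, a receptor for medium-chain fatty acids, was at 2320 CPM against 572 CPM, and Hcar2, the niacin receptor gene, at 351 CPM against 42.0 CPM.

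The receptor for IL-33 itself was scarce on both sides. Il1rl1 (chromosome 1, 40429570 to 40465415, plus strand) gave 56 UMIs in cluster 1 (5.35 CPM) and 7 UMIs in cluster 0 or 2 (7.35 CPM), a ratio of 0.728 with an interval of 0.331 to 1.89. A difference was not detectable at this depth. Cluster 0 or 2 of cKO IL-33 held 13.04 CPM and that of WT vehicle 12.5 CPM. The labels do not say which exons are floxed, and UMIs of this chemistry come from transcript ends, so the cKO level does not check the deletion. The share of cells with an Il1rl1 UMI was 2.92% in cluster 1 and 2.85% in cluster 0 or 2, and with each cell thinned to 3000 UMIs it was 1.21% and 2.48%, with 3.31% in WT vehicle cells. Il1rap, the second receptor chain, was at 17.9 CPM from 187 UMIs against 7.35 CPM from 7 UMIs (2.43-fold, 1.16 to 6.13). The log2 ratio of Il1rap was 1.92 in female-called cells without Y-linked UMIs and -0.07 in male-called cells with them, and a difference between these was not tested. Il33 had 0 UMIs on both sides.

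Genes of the receptor and its downstream pathway differed in both directions. Of 11 genes of the list for IL-33 receptor and MyD88 signalling, 3 were higher (Il1rap, Myd88 and Irak3) and 3 lower (Irak4, Tollip and Tab1). Log2 ratios of the 11 genes ran from -0.72 to 2.68. Their median was -0.09, and its sign changed under some alternatives (0.27 over members at 100 CPM or more). Irak2, a kinase of the pathway that NF-kB also induces, was at 122 CPM in cluster 1 and 101 CPM in cluster 0 or 2 (1.21-fold, 0.982 to 1.505), with 37.1 CPM in WT vehicle cells. Irak3, which encodes the inhibitory member IRAK-M, was at 32.3 CPM against 4.199 CPM from 4 UMIs. Of 5 NF-kB subunit genes, 2 were higher and 0 lower (median 0.47). Relb was at 103 CPM against 74.5 CPM, with 13.7 CPM in WT vehicle cells. Nfkb2 was at 136 CPM against 63.0 CPM, with 9.31 CPM in WT vehicle cells.

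Inhibitors that NF-kB induces as feedback were mostly higher in cluster 1, by varying amounts. Of 13 such genes, 8 were higher and 2 lower (median 0.77). Nfkbia, which encodes the inhibitor IkB-alpha, was at 813 CPM in cluster 1 and 550 CPM in cluster 0 or 2 (1.48-fold, 1.35 to 1.62), with 128 CPM in WT vehicle cells. Tnfaip3, which encodes the ubiquitin-editing inhibitor A20, was at 238 CPM against 118 CPM, with 21.5 CPM in WT vehicle cells. For these genes cluster 0 or 2 lay well above the vehicle level. Nfkbiz, an atypical IkB gene that acts on secondary response genes, was further apart at 989 CPM against 136 CPM (7.24-fold, 6.09 to 8.68), with 11.5 CPM in WT vehicle cells. Of 17 NF-kB target effector genes, 14 were higher and 2 lower (median 1.83). Tnfaip2 was at 1168 CPM against 94.5 CPM (12.4-fold, 10.0 to 15.4), and Gadd45b, a stress sensor, at 306 CPM against 14.7 CPM. Bcl2a1d, a survival gene with near-identical copies that reads can be split among, was at 332 CPM against 38.8 CPM.

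**Figure D2:**
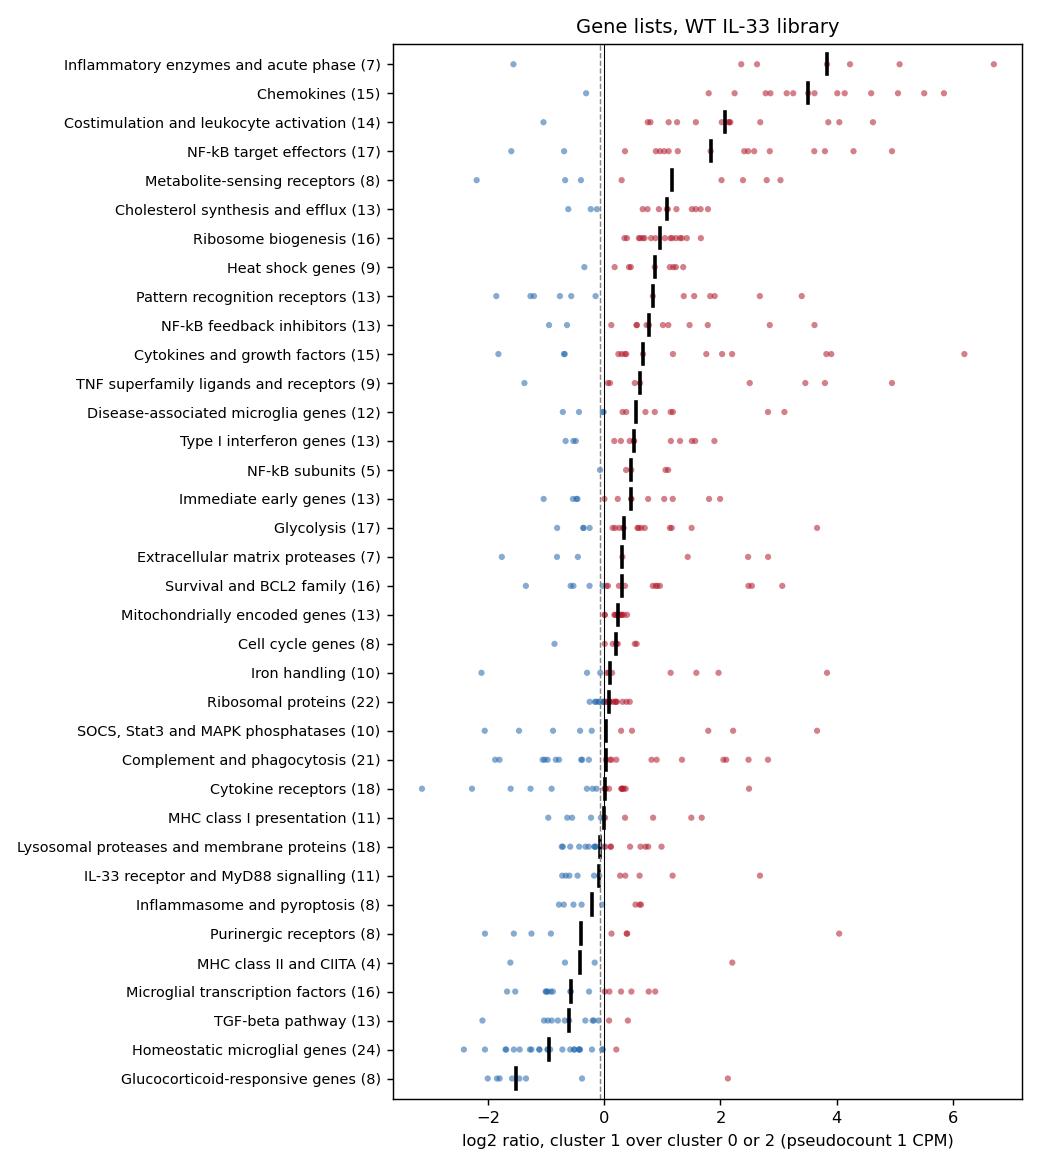
Log2 ratio of cluster 1 over cluster 0 or 2 (horizontal axis) for the members at 10 CPM or more of 36 gene lists, with the number of such members in brackets. Each point is a gene, a black bar marks a list's median and the dashed line the median of all genes, -0.07; inflammatory enzymes (3.83) and chemokines (3.51) have the highest medians, and glucocorticoid-responsive genes (-1.52) and homeostatic genes (-0.95) the lowest.

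Ribosome biogenesis genes were also mostly higher in cluster 1. Of 16 ribosome biogenesis genes, 14 were higher and 0 lower (median 0.96), among them Nop56, a nucleolar protein that guides RNA methylation, at 336 CPM against 125 CPM. The ribosomal proteins themselves were level, with 0 of 22 past 1.5-fold in either direction (median 0.08). Among 9 chaperone genes of the heat shock list, 5 were at least 1.5-fold higher and 0 lower (median 0.87), with Hsp90aa1 at 558 CPM against 237 CPM. Of 13 cholesterol genes, 10 were higher and 1 lower (median 1.08); over the 3 members at 100 CPM or more the median was -0.13. The lower member was Abca1, the cholesterol exporter gene, at 214 CPM in cluster 1 and 330 CPM in cluster 0 or 2. Cell cycle genes showed no such excess, with 0 of 8 higher and 1 lower (median 0.21).

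Most homeostatic genes were lower in cluster 1. Of 24 homeostatic microglial genes, 0 were higher and 15 lower in cluster 1, with a median log2 ratio of -0.95. P2ry12, the ADP receptor gene that directs microglial processes to injury, was at 725 CPM in cluster 1 and 3014 CPM in cluster 0 or 2, 4.16-fold lower in cluster 1 (3.98 to 4.34), with 3988 CPM in WT vehicle cells. Gpr34, a receptor for lysophosphatidylserine, was at 260 CPM in cluster 1 and 1394 CPM in cluster 0 or 2, 5.36-fold lower in cluster 1 (5.01 to 5.72), with 1290 CPM in WT vehicle cells. Cluster 0 or 2 cells were thus near the vehicle level for Gpr34 and somewhat below it for P2ry12. Tmem119 was at 960 CPM against 1831 CPM, and Selplg, the P-selectin ligand gene, at 731 CPM against 2357 CPM. Other markers were closer: Csf1r, the receptor gene for the survival factor CSF1, was at 2419 CPM against 3461 CPM, and Trem2, a lipid-sensing receptor gene, at 1168 CPM against 1579 CPM.

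Some of the transcription factor and TGF-beta genes that keep the homeostatic state were lower too. Of 16 microglial transcription factor genes, 2 were higher and 7 lower (median -0.58). Sall1, a repressor typical of microglia, was at 156 CPM against 452 CPM, and Mef2a at 476 CPM against 958 CPM. Spi1, which encodes the lineage factor PU.1, was the other way at 819 CPM against 482 CPM. Of 13 TGF-beta pathway genes, 0 were higher and 7 lower (median -0.60). Pmepa1, a feedback inhibitor induced by TGF-beta, was at 127 CPM in cluster 1 and 546 CPM in cluster 0 or 2, with 854 CPM in WT vehicle cells. Mertk, which encodes a receptor for engulfing dead cells, was at 107 CPM against 397 CPM. It was the lowest member of another list, complement and phagocytosis, which was split. Of 21 genes there, 7 were higher and 7 lower (median 0.03), with Axl the highest at a log2 ratio of 2.82.

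The gene with the lowest ratio was a cytokine receptor. Il7r, the IL-7 receptor alpha chain gene, was at 19.9 CPM in cluster 1 and 183 CPM in cluster 0 or 2, 9.19-fold lower in cluster 1 (7.47 to 11.3), with 166 CPM in WT vehicle cells. Lifr, the receptor gene for leukemia inhibitory factor, was at 37.4 CPM in cluster 1 and 185 CPM in cluster 0 or 2, 4.95-fold lower in cluster 1 (4.12 to 5.92). Both were higher in cluster 2 than in cluster 0, with 231 and 142 CPM of Il7r and 240 and 138 CPM of Lifr. Etv1, an ETS family transcription factor gene, was at 10.7 CPM in cluster 1 and 84.0 CPM in cluster 0 or 2 (7.85-fold lower, 5.82 to 10.5). Hpgd, the enzyme gene for breaking down prostaglandins, was at 48.4 CPM in cluster 1 and 282 CPM in cluster 0 or 2 (5.83-fold lower, 5.01 to 6.77). Of 18 cytokine receptor genes in all, 1 was higher and 5 lower (median 0.01), so Il7r and Lifr were not typical of that list.

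Glucocorticoid-responsive genes were the list with the lowest median, -1.52, and 6 of 8 members were lower in cluster 1 and 1 higher. Fkbp5, a chaperone gene that steroid receptors induce, was at 135 CPM in cluster 1 and 408 CPM in cluster 0 or 2, 3.02-fold lower (2.69 to 3.38). WT vehicle cells held 127 CPM of Fkbp5 and cKO IL-33 cells of cluster 0 or 2 held 365 CPM. For Fkbp5, cluster 1 cells thus sat near the vehicle level and cluster 0 or 2 cells near the cKO level. Ddit4, a stress-induced inhibitor of mTORC1, was at 87.4 CPM against 317 CPM, with 247 CPM in cKO IL-33 cells and 108 CPM in WT vehicle cells. Sgk1, a kinase gene, was at 126 CPM against 441 CPM, with 369 CPM in cKO IL-33 cells and 266 CPM in WT vehicle cells. Lifr was also highest in cluster 0 or 2 of WT IL-33, with 167 CPM in cKO IL-33 cells and 79.0 CPM in WT vehicle cells. Cluster 1 was below the vehicle level for Ddit4, Sgk1 and Lifr, unlike for Fkbp5. The cKO IL-33 cells were nearly all female-called and the WT vehicle cells nearly all male-called, and the 2 libraries also differed in genotype. For these levels library, genotype, sex and injection therefore cannot be told apart. Within the WT IL-33 library the Fkbp5 log2 ratio was -1.56 in female-called cells without Y-linked UMIs and -1.63 in male-called cells with them. The higher member was Cdkn1a, a cell cycle inhibitor gene also induced by p53, at 136 CPM against 30.4 CPM.

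**Figure D3:**
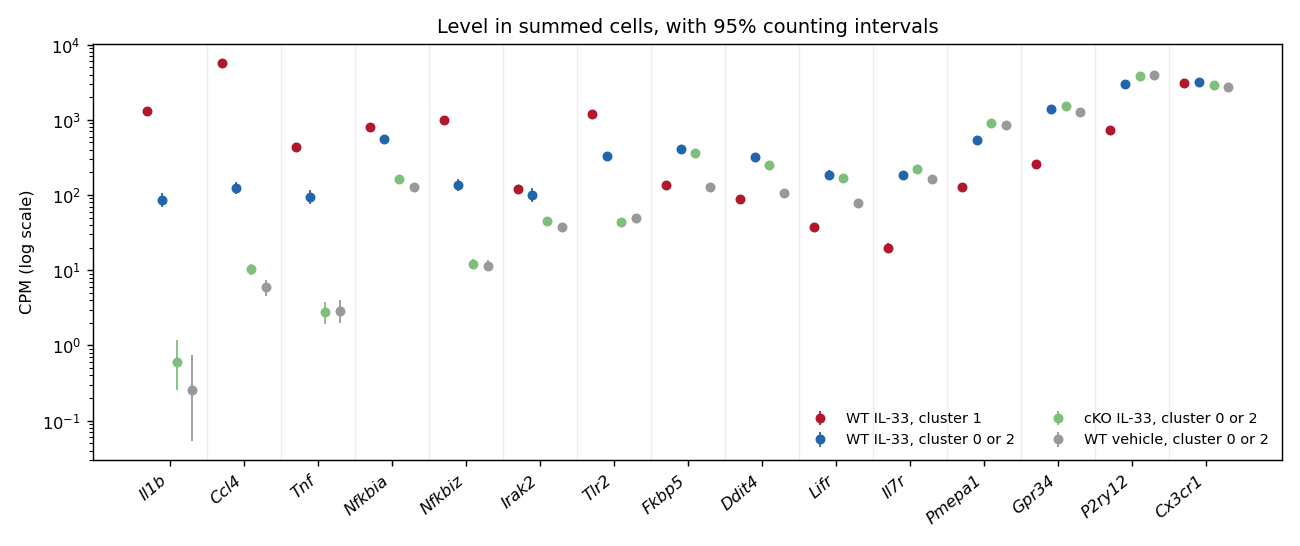
Level of 15 genes (vertical axis, CPM on a log scale) in cluster 1 and in cluster 0 or 2 of WT IL-33, and in cluster 0 or 2 of cKO IL-33 and of WT vehicle, with exact Poisson intervals. Il1b and Tnf are highest in cluster 1 with cluster 0 or 2 of WT IL-33 in between (87.1 and 93.4 CPM), Irak2 is similar on both sides (122 and 101 CPM), and Fkbp5 is highest in cluster 0 or 2 (408 CPM).

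Cell by cell, the sides differed in amount with a narrow overlap. The 82 cytokine, chemokine and NF-kB pathway genes took a median of 2.92% of a cell's UMIs in cluster 1 and 0.606% in cluster 0 or 2, with 0.305% in WT vehicle cells and 0.318% in cKO IL-33 cells of cluster 0 or 2. The range was 0.658% to 19.5% in cluster 1 and 0.115% to 1.996% in cluster 0 or 2. No cluster 0 or 2 cell reached the cluster 1 median (0 of 246, exact upper bound 1.49%), and no cluster 1 cell was at or below the cluster 0 or 2 median (0 of 1815, exact upper bound 0.203%). Of the cluster 0 or 2 cells, 26 of 246 (10.6%, 7.02 to 15.1) were at or above the 5th percentile of cluster 1. These genes could have helped to form the clusters, so the gap is a description only. The 24 homeostatic genes overlapped more. They took a median of 5.18% of UMIs in cluster 1 and 7.18% in cluster 0 or 2, with 6.65% in WT vehicle cells. At or above the cluster 0 or 2 median of these genes were 125 of 1815 cluster 1 cells (6.89%, 5.77 to 8.15).

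**Figure D4:**
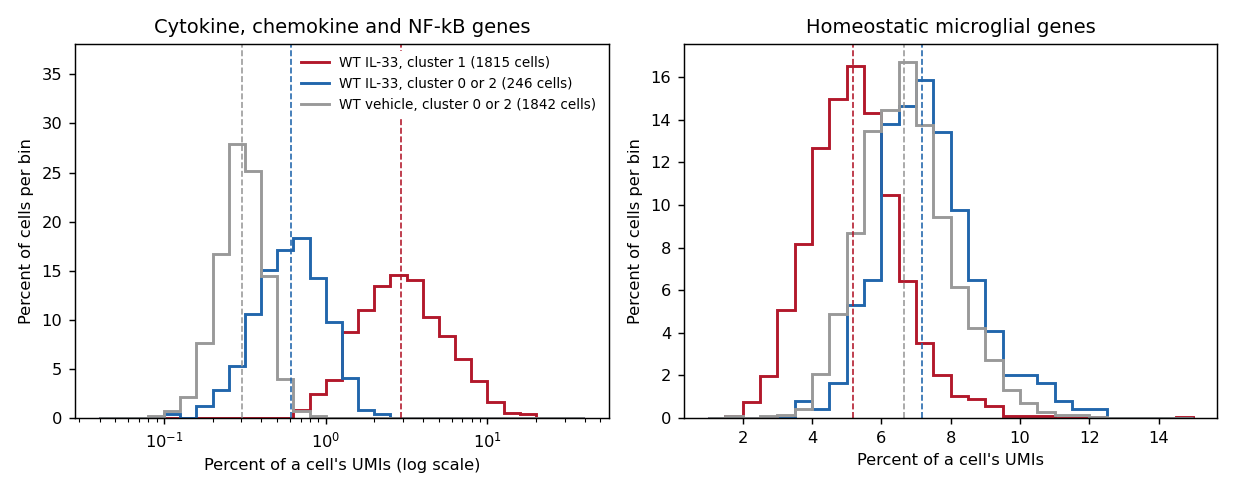
Percent of each cell's UMIs (horizontal axes; log scale on the left) from 82 cytokine, chemokine and NF-kB genes (left) and 24 homeostatic genes (right), as the percent of cells per bin (vertical axes), for cluster 1 and cluster 0 or 2 of WT IL-33 and cluster 0 or 2 of WT vehicle. Dashed lines are medians; on the left the cluster 0 or 2 cells, at 0.606%, lie between cluster 1 at 2.92% and vehicle at 0.305%.

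The summed levels in cluster 0 or 2 came from different numbers of cells for different genes. Il1b had a UMI in 1349 of 1815 cluster 1 cells (74.3%) and in 28 of 246 cluster 0 or 2 cells (11.4%), against 2 of 1842 WT vehicle cells. After thinning to 3000 UMIs, which left out 250 cluster 1, 85 cluster 0 or 2 and 57 WT vehicle cells, the shares were 69.1%, 13.04% and 0%. The highest cluster 0 or 2 cell held 11 Il1b UMIs, and the top 10% of these cells held 96.4% of the Il1b UMIs. Il1b there was thus a signal of few cells. Nfkbia was spread wider, with the top 10% of cluster 0 or 2 cells holding 33.2% of its UMIs, close to the 32.2% in cluster 1. Il12b had a UMI in 46.7% of cluster 1 cells and 3.66% of cluster 0 or 2 cells (43.8% and 1.86% after thinning), against 0.0543% of WT vehicle cells, whose median depth was 5283 UMIs. Ccl4 had one in 85.5% and 20.3% (83.8% and 20.5% after thinning), against 2.17% of WT vehicle cells. P2ry12 had one in 78.7% of cluster 1 cells and in all 246 cluster 0 or 2 cells (71.4% and 99.4% after thinning).

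The level left in cluster 0 or 2, as a percent of the cluster 1 level, was not alike from gene to gene. It was 0.493% for Saa3, 1.29% for Il12b and 2.18% for Ccl4. It was 6.60% for Il1b, 21.6% for Tnf, 28.2% for Tlr2 and 82.7% for Irak2. The part of free RNA in these levels was not tested.

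The share of cells in cluster 0 or 2 differed by sex call within the library. It was 15.2% of 1037 female-called cells (13.1 to 17.6) and 8.59% of 1024 male-called cells (6.95 to 10.5). Among cells with 2500 to 6000 UMIs it was 22.7% and 9.11%. With the stricter calls it was 19.6% of 740 female-called cells without Y-linked UMIs and 7.15% of 629 male-called cells with them. The cells of 1 sex can come from as few as 1 animal, so sex, animal and injection cannot be told apart in this share. The ratios of the 15 highest and 15 lowest genes had the same sign in both of the stricter sets. Ccl4 was at log2 5.35 in female-called cells without Y-linked UMIs and 5.52 in male-called cells with them, and Gpr34 at -2.51 and -2.57. The 15 highest and 15 lowest were picked by their ratio over cells that include both sets, so the shared sign is a description only.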

How the data were processed

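CD45-positive cells of mouse thalamus were profiled on the 10x Chromium (Chip G), per the labels' protocols. The authors deposited raw UMI counts, with 20586 genes as rows and 7598 cells as columns. Each of the 3 groups is 1 library. Cell Ranger 5.0, Seurat 4.0.1 and the build GRCm38 appear in the submitters' processing notes, without their roles. Library, sex call, cluster number, cycle phase and the mitochondrial and ribosomal percent of every cell come from a deposited cell table, per the file headers.

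The members and gene lists were chosen with earlier results of these data known. UMIs were summed per gene over the cells of each side and divided by their total (CPM), in Python 3.11.15 with pandas 2.3.3 and scipy 1.17.1. CPM has an exact Poisson interval, a ratio an exact conditional binomial one and a share a Clopper-Pearson one, all at 95%. Log2 ratios used a pseudocount of 1 CPM. With 1 library no test was made. Deep cells weigh more in a sum, and a mean over cells was tried as an alternative. Sex calls were checked with Xist and 4 Y-linked genes. Doublets were not called here, and no label says whether the submitters had taken them out. The deposited cells held 2100 to 19987 UMIs. The ratio step was tested on simulated sums.

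The genes named were the 15 highest and 15 lowest of those at 50 CPM or more, at least 2-fold apart and with an interval that excluded 1. Up to 4 members of each list with the largest ratio at 50 CPM or more, and Il1rl1, Il1rap, Il33 and Cx3cr1, were added. Other list members with values in the text, such as Nfkbia, Il1a, Ccl6, Irak3, Tgfb1, Pdgfb, Hbegf, Tlr3, Tlr4, Tmem119, Csf1r, Trem2, Spi1 and Abca1, were chosen after their values were seen. Clusters 3, 4 and 5 were left out of the comparison. Reads of genes with near-identical copies may be split among them. A gene that the naming rule selects is not reported here.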

Additional observations from a re-analysis of the deposited data

Results flagged for a closer look

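In the WT IL-33 cells that entered neither side, the 82 genes also took a higher median share of UMIs than in vehicle cells of the same cluster. The 82 cytokine, chemokine and NF-kB pathway genes took a median of 1.37% of UMIs in the 67 WT IL-33 cells of cluster 3, against 0.316% in the 512 WT vehicle cells of that cluster. In cluster 4, where 11 of 15 WT IL-33 cells were called G2M, the median was 1.80%, against 0.283% in 247 WT vehicle cells. In cluster 5 it was 3.27% in 59 WT IL-33 cells, against 0.386% in 88 WT vehicle cells. The range in WT IL-33 cells of cluster 5 was 0.559% to 17.9%. These values come from 1 library per group and were not tested.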

How the results depend on the processing

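No paired analysis was possible because each group is 1 library and no result comes from a test. All 107 named genes that were at least 2-fold apart kept their sign under each of the 12 alternatives that gave a new ratio, although 315 of the 1284 values moved. Each alternative used the same cells or a part of them, and the 107 genes were picked for their ratios there. The kept signs are therefore a description and not a check. Over all 155 named genes with a ratio, 430 of 1860 values moved and 1844 kept their sign. The counts of 293 genes higher and 389 lower became 606 and 941 with genes at 10 CPM or more, and 192 and 219 with genes at 100 CPM or more. Against cluster 2 only, 607 genes were lower. They became 486 and 669 in male-called cells with Y-linked UMIs, where cluster 0 or 2 held 45 cells. They became 475 and 629 without cells holding 2 UMIs of another class's markers, which left 183 and 74 cells. Of 468 list medians under alternatives, 424 kept their sign. The cholesterol median of 1.08 became -0.13 with genes at 100 CPM or more, where 3 members were left. Few UMIs in cluster 0 or 2 limit the ratios of its scarce genes.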
